A study of Mus musculus with 2 samples.

Results

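The genes that time the passage of a cell from G1 into S phase were followed one by one in mouse bone marrow stem and progenitor cells. They were 10 genes, picked by name and function out of the 31053 genes of the expression matrix: the kinase inhibitors Cdkn1a, Cdkn1b, Cdkn1c and Cdkn2c, the D-type cyclins Ccnd1, Ccnd2 and Ccnd3, the kinases Cdk4 and Cdk6, and the E-type cyclin Ccne1. All 10 were in the matrix. The cells were LSK cells, which carry Sca-1 and c-Kit and lack lineage markers, sorted from C57BL/6JRj mice, for which the labels name no drug and no transgene. Old mice were 22 to 28 months of age and young mice 3 to 5 months, with 4 mice per age put into 1 library per age, so no result has a replicate and the mice of an age cannot be told apart. Transcripts and the DNA tags of antibodies that bind CD150, CD48 or PE, the last for the CLCA3A1 stain, were read from the same droplets by CITE-Seq, which counts molecules by unique molecular identifiers (UMIs). The library of a cell is given by the suffix 1 or 2 of its barcode, and neither the labels nor the methods pair a suffix with an age, so old and young cells were not compared.

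D-type cyclins bind CDK4 or CDK6 in response to growth signals, and these complexes begin to phosphorylate the retinoblastoma protein, which frees E2F factors to switch on S phase genes, CCNE1 among them. Cyclin E with CDK2 then completes that step. The inhibitors of the CIP/KIP family (p21, p27 and p57) bind cyclin and kinase together, whereas INK4 inhibitors such as p18 bind CDK4 and CDK6 alone. Haematopoietic stem cells are for the most part quiescent, and p57 and a low level of CDK6 are both known for their part in holding them there.

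Of 4688 barcodes, 4068 had under 10% mitochondrial UMIs and over 1500 genes and were kept, 1524 with suffix 1 and 2544 with suffix 2, and no barcode was shared by the libraries. Median depths were 15023.5 and 14766.5 UMIs per cell. The 3986 kept cells with tags were split into 4 gates at the 75th percentile of CD150 and the 25th percentile of CD48, separately within each suffix. CD150-high CD48-low cells, the tag pattern used to enrich stem cells, numbered 172 with suffix 1 and 383 with suffix 2. CD150-low CD48-low cells numbered 204 and 250, CD150-high CD48-high cells 209 and 241, and CD150-low CD48-high cells, the largest gate and the reference of every gate comparison, 912 and 1615. The limits differed between the libraries, at 40 and 407 tags for CD150 and 224 and 42 for CD48, so a gate of the same name held other tag ranges in each. The LSK markers Kit and Ly6a had a UMI in 82.4% to 84.6% and 86.9% to 94.5% of kept cells. All 10 genes of the stem cell marker list were detected in every gate and library, and their summed level was 1350 and 1704 CPM (UMIs of the listed genes per 1000000 UMIs) in the CD150-high CD48-low gate against 1329 and 1384 in CD150-low CD48-low cells, 1036 and 1487 in CD150-high CD48-high cells and 737 and 597 in the reference gate. Of that list Hlf alone was lower in the CD150-high CD48-low gate than in CD150-low CD48-low cells, at 432 and 322 against 653 and 419. Against 242 and 550 in the reference, the myeloid markers Mpo, Ctsg and Elane summed to 2.22 and 3.42 in the CD150-high CD48-low gate. None of them was at 0 there. The lymphoid pair Dntt and Il7r, with Il7r at 0, summed to 1.33 and 1.52 against 455 and 252, and the progenitor list (Cd34, Flt3, Cd48) to 216 and 43.9 against 943 and 758. Both T cell markers were at 0 in the CD150-high CD48-low gate. Erythroid and megakaryocytic markers summed to 56.8 and 38.0 there, with 2 of 4 (Gata1 and Klf1) at 0 in suffix 1, and to 20.9 and 61.7 in the reference. Neutrophil, macrophage and red cell markers each summed to at most 12.03 in every gate and library, except 106 for red cell markers in CD150-low CD48-low cells of suffix 2. The B and plasma list summed to 42.6 and 124 in the CD150-high CD48-low gate and to 552 and 5040 in the reference gate, where 1 cell of suffix 1 and 10 of suffix 2 had over 1% of their UMIs from Cd79a, Igkc and Jchain. Without such cells, the number of the 10 genes called stayed the same in each of 6 comparisons, 3 of gates, 1 of Mki67 and 2 of libraries.

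Levels are CPM, the UMIs of a gene per 1000000 UMIs when all cells of a class and library are summed. Their 95% intervals, like those of ratios and shares, cover counting error only. No test was run, because each age is a single library and its cells are no replicates of it. A gene is named called in a comparison when its ratio was at least 1.5, or at most 1/1.5, in the same direction within both libraries, with at least 50 UMIs in each library over both classes together. A gene can therefore pass this minimum through the class where it is high. Between the libraries, the minimum was 50 UMIs over both libraries of a gate. The 3 gate comparisons share the CD150-low CD48-high cells.

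Cdkn1c had the highest ratio of the 10 genes in the stem cell gate, and Cdk6 the lowest. Between the CD150-high CD48-low gate and the reference, 4 of 10 were called: Cdkn1c higher, and Cdkn1a, Cdk4 and Cdk6 lower. Over all 10785 genes tested 18% were called, 8.26% higher and 9.75% lower. The median log2 ratio of the 10 was -0.24, beside -0.06 for all genes tested. In CD150-low CD48-low cells 4 of 10 were called as well, with Cdkn1c higher and Cdk4, Cdk6 and Ccne1 lower, where 12.3% of 10743 genes were called, 5.61% higher and 6.71% lower. Ccne1 had 4 and 5 UMIs in this gate against 103 and 226 in the reference, and its call was lost after thinning, with a centred log ratio of the tags, under the stricter cell filter and in cells without a Mki67 UMI. The call of Cdk4 in this gate was lost under the same 4 settings, with 2-fold as the limit and with tag limits set over both libraries. Cdk6 lost its call there under the stricter filter and with 2-fold as the limit, and Cdkn1c under the stricter filter. In CD150-high CD48-high cells Cdkn1c alone of the 10 was called, where 7.01% of 10894 genes were called, 4.37% higher and 2.64% lower.

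**Figure D1:**
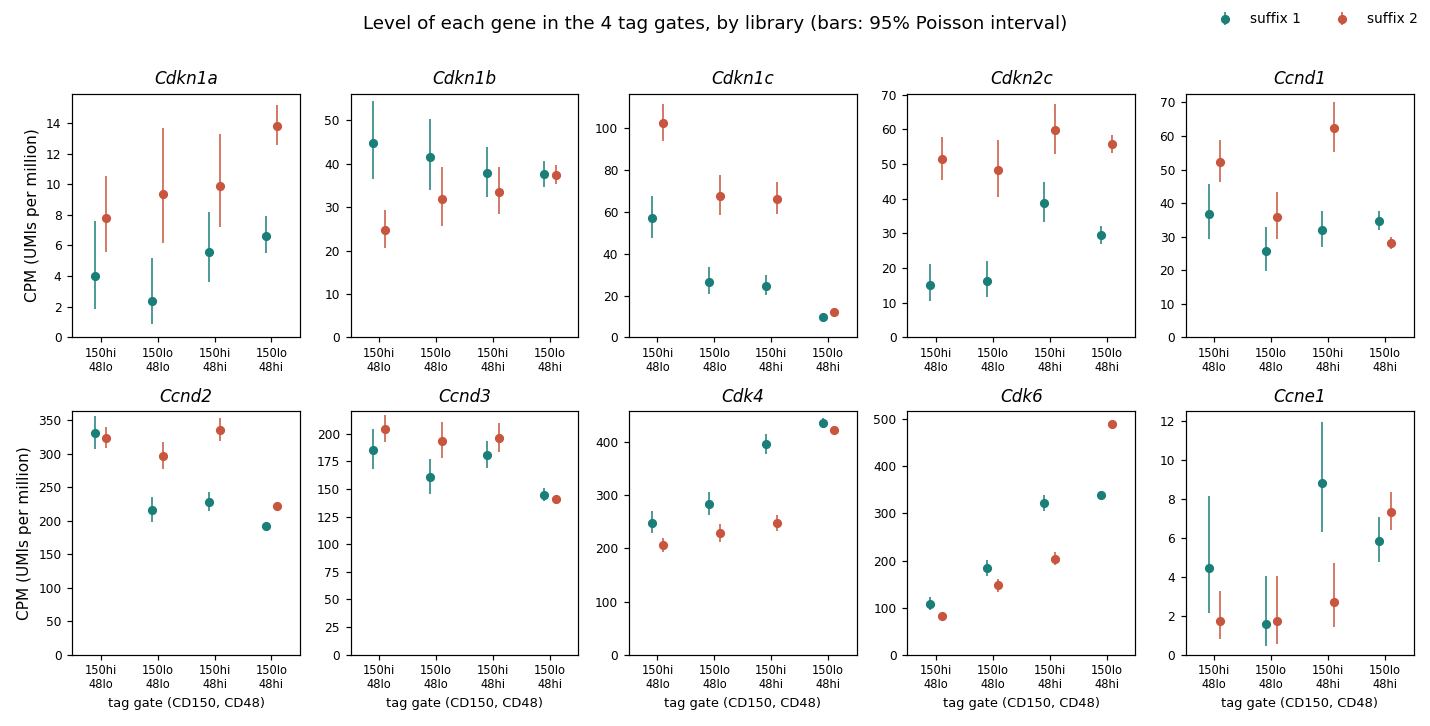
CPM (vertical axes, from 0) of each of the 10 genes in the 4 gates of CD150 and CD48 tags (150hi 48lo is CD150-high CD48-low), with 1 point per library and bars for the 95% Poisson interval, which covers counting error only. Cdkn1c is highest in CD150-high CD48-low cells of both libraries (56.8 and 102), and Cdk6 lowest there (108 and 81.3).

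Cdkn1c encodes p57, the CIP/KIP inhibitor best known in stem cells, and lies at chr7:143458339-143461050 on the minus strand (GRCm38, GENCODE vM21). Its level in CD150-high CD48-low cells was 56.8 (47.4 to 67.6) with suffix 1 and 102 (93.7 to 111) with suffix 2. It was 26.5 and 67.4 in CD150-low CD48-low cells, 24.7 and 66.1 in CD150-high CD48-high cells, and 9.92 and 12.2 in the reference gate. In both libraries the stem cell gate was thus highest and the reference lowest with intervals that did not overlap those of any other gate, and the 2 gates between them did not differ beyond their intervals. The pooled ratio to the reference was 7.81 (6.96 to 8.76) for the CD150-high CD48-low gate. It was 4.26 (3.66 to 4.94) for CD150-low CD48-low and 3.96 (3.48 to 4.51) for CD150-high CD48-high. By the levels above, each ratio was higher with suffix 2 than with suffix 1, a difference that the pooled intervals do not cover. After every cell was thinned to 9000 UMIs, which left out 243 of the kept cells, a Cdkn1c UMI was found in 32.7% and 53.2% of CD150-high CD48-low cells and in 8.19% and 10.7% of reference cells. Before thinning these shares were 44.2% and 65.0%, and 14.0% and 16.7%.

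The other CIP/KIP genes had no such gradient. Cdkn1b, which encodes p27 (chr6:134920401-134925513, plus strand), was at 44.8 and 24.7 in the CD150-high CD48-low gate and at 37.6 and 37.5 in the reference. The ratio was 1.19 (0.958 to 1.47) in suffix 1, an interval that held 1, and 0.659 (0.545 to 0.790) in suffix 2. Cdkn1a, which encodes the p53 target p21 (chr17:29090976-29100727, plus strand), was sparse. It was at 4.00 and 7.78 in the CD150-high CD48-low gate and at 6.63 and 13.8 in the reference, a pooled ratio of 0.594 (0.435 to 0.794), and the interval within suffix 1 held 1 (0.269 to 1.18). Its call was lost in cells without a Mki67 UMI, where the ratio was 0.947 (0.408 to 1.95) with suffix 1 and 0.755 (0.521 to 1.07) with suffix 2.

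Cdkn2c encodes p18, an INK4 inhibitor (chr4:109660876-109667189, minus strand). It was at 15.1 and 51.5 in the CD150-high CD48-low gate, 16.2 and 48.3 in CD150-low CD48-low cells, 38.7 and 59.8 in CD150-high CD48-high cells and 29.5 and 55.8 in the reference. With suffix 1 both CD48-low gates were below both CD48-high gates without overlap, at 0.512 (0.351 to 0.725) of the reference for the stem cell gate. With suffix 2 the intervals of all 4 gates overlapped, and that ratio was 0.922 (0.808 to 1.05). Its relatives Cdkn2a and Cdkn2b, which encode p16 and p15, were near or at the limit: Cdkn2a had 7 UMIs in 4068 cells, and Cdkn2b none, which allows a share of cells with a UMI of up to 0.0737%.

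Ccnd2 had the most UMIs of the D-type cyclins (chr6:127125162-127152193, minus strand) and was at 331 (308 to 356) and 324 (309 to 340) in CD150-high CD48-low cells, against 192 and 223 in the reference. The ratio of 1.72 in suffix 1 passed 1.5-fold and the 1.45 in suffix 2 did not, so it was not called. Ccnd3 (chr17:47505051-47599691, plus strand) was also higher in the stem cell gate of both libraries, at 185 and 204 against 145 and 141, by 1.28 and 1.45. All 3 gates were above the reference for Ccnd2 and Ccnd3 in both libraries, the smallest ratio being 1.11 for Ccnd3 in CD150-low CD48-low cells of suffix 1, with an interval that held 1.

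Ccnd1 (chr7:144929931-144939925, minus strand) differed between the libraries instead. With suffix 2 it was at 52.2 in CD150-high CD48-low cells, 35.8 in CD150-low CD48-low cells, 62.3 in CD150-high CD48-high cells and 28.0 in the reference, and both CD150-high gates were above both CD150-low gates without overlap. With suffix 1 the same gates were at 36.9, 25.7, 32.01 and 34.8, and the CD150-high CD48-low ratio was 1.06 (0.833 to 1.34) against 1.86 (1.62 to 2.13) in suffix 2. Of the cyclin D UMIs of a class, Ccnd2 made up 59.9% and 55.8% in the CD150-high CD48-low gate and 51.7% and 56.9% in the reference. These shares are of UMIs at the 3′ end and are not shares of protein.

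**Figure D2:**
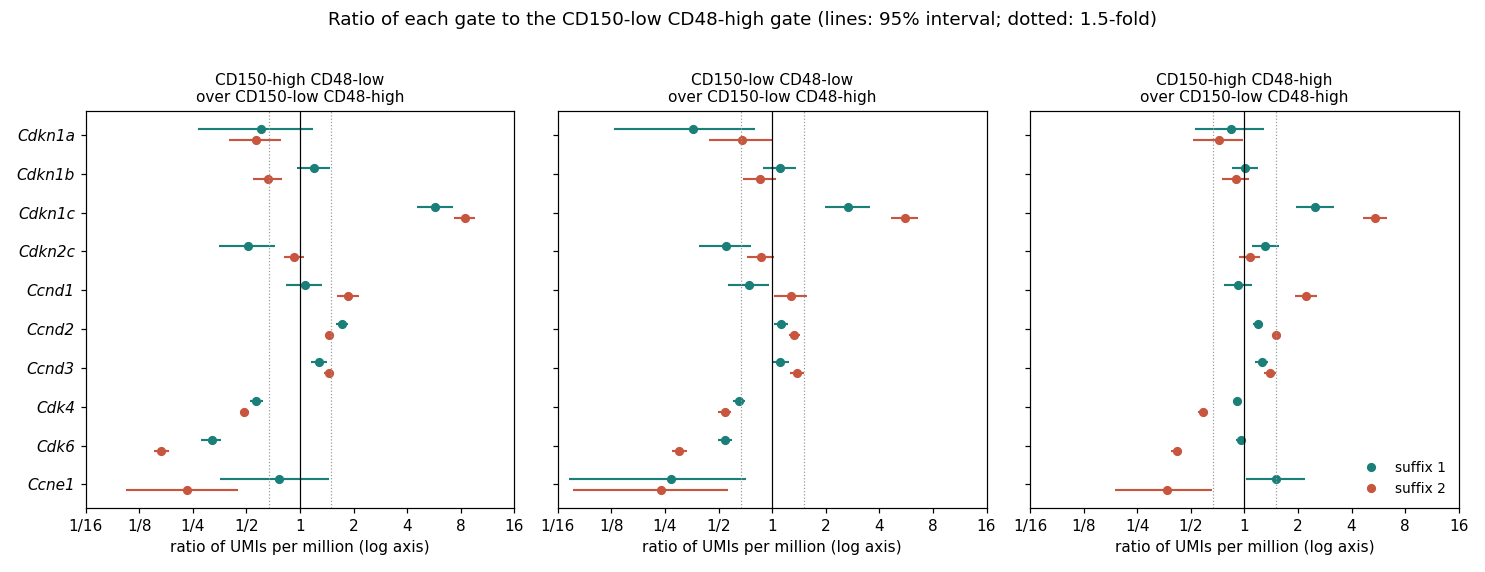
Ratio of CPM in each of 3 gates to the CD150-low CD48-high gate (log axis), 1 point per library, lines for the 95% interval for counting error and dotted lines at 1.5-fold. Cdkn1c lies to the right in all 3 panels, and Cdk6 lies left of 1.5-fold in both CD48-low panels.

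Cdk6 and Cdk4 encode the kinases that D-type cyclins activate. Cdk6 (chr5:3341485-3531008, plus strand) was at 108 (94.8 to 122) and 81.3 (73.7 to 89.3) in CD150-high CD48-low cells, at 184 and 147 in CD150-low CD48-low cells, at 322 and 204 in CD150-high CD48-high cells and at 339 and 489 in the reference. The order of the gates was the same in both libraries, and only the upper 2 gates of suffix 1 had overlapping intervals. The stem cell gate was at 0.319 (0.279 to 0.362) of the reference in suffix 1 and 0.166 (0.151 to 0.183) in suffix 2, or 0.205 (0.190 to 0.222) pooled. In thinned cells a Cdk6 UMI was found in 50.0% and 41.6% of the stem cell gate and in 82.3% and 90.1% of the reference.

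Cdk4 (chr10:127063534-127067920, plus strand) followed the same order over a smaller range. It was at 249 and 206 in CD150-high CD48-low cells, 284 and 229 in CD150-low CD48-low cells, 397 and 248 in CD150-high CD48-high cells and 437 and 423 in the reference, and its stem cell gate ratio was 0.569 (0.521 to 0.620) and 0.488 (0.458 to 0.519). The intervals of the 2 CD48-low gates overlapped in both libraries, and the reference lay above the other gates without overlap in both. Cdk6 therefore made up a smaller share of the summed Cdk4 and Cdk6 UMIs in the stem cell gate, 30.3% (27.1% to 33.6%) and 28.3% (26.0% to 30.6%), than in the reference, 43.7% (42.8% to 44.5%) and 53.6% (53.0% to 54.2%).

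Ccne1 (chr7:38097984-38107534, minus strand), the cyclin that activates CDK2 at the G1 to S boundary, had 411 UMIs in all. It was at 4.44 and 1.71 in CD150-high CD48-low cells, 1.58 and 1.74 in CD150-low CD48-low cells, 8.81 and 2.70 in CD150-high CD48-high cells and 5.84 and 7.33 in the reference. The reference was highest with suffix 2 and CD150-high CD48-high cells were highest with suffix 1, with an interval (6.32 to 11.95) that overlapped the reference's (4.77 to 7.08). The stem cell gate ratio was 0.760 (0.354 to 1.46) and 0.233 (0.105 to 0.451).

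Cdk4, Cdk6 and Ccne1 were the 3 genes called lower in CD150-low CD48-low cells, with lost calls and the few Ccne1 UMIs given above. For that reason their promoters are shown. They run from 250 bases before to 50 after the RefSeq start (GRCm38.p6), 5′ to 3′ on the gene's strand. Capitals mark the words TTTNNCGC, CACGTG and GGGCGG. The first is a loose form of the E2F site, with any base at each N. CACGTG is the E-box that MYC and its partners bind, and GGGCGG is a GC box. Each was searched on both strands, so CCGCCC is GGGCGG read from the other strand, and overlapping words run together.
Cdk4, chr10:127063285-127063584, plus strand: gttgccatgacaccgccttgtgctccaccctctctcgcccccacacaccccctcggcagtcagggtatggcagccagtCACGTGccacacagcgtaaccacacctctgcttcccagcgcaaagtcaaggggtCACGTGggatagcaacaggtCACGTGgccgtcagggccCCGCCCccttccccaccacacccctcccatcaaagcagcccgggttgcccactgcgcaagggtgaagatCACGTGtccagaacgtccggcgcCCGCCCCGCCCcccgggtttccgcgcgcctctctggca
Cdk6, chr5:3343643-3343942, plus strand: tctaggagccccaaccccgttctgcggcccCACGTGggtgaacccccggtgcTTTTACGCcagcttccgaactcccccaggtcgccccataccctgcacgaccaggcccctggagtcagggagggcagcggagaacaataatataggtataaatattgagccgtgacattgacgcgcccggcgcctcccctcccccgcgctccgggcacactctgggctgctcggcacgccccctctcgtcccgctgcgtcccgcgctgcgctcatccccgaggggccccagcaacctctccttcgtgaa
Ccne1, chr7:38107441-38107740, minus strand: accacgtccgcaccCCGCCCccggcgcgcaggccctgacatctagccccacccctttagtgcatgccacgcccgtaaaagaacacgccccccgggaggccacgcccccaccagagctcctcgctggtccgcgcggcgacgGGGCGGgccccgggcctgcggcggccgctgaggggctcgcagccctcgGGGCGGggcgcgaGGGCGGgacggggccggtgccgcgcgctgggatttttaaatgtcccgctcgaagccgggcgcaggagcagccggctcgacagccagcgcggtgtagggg
The Cdk4 window holds 4 CACGTG and 3 GGGCGG words, that of Cdk6 1 CACGTG and 1 TTTNNCGC, and that of Ccne1 4 GGGCGG. Of the 32851 promoters of the same length, 7.15% held at least 1 CACGTG, 5.17% a TTTNNCGC and 35.7% a GGGCGG. Such words are matches of letters in a window and not sites shown to be bound. RefSeq windows were matched for 7 of the 10 genes (10 windows), and among them TTTNNCGC was found for Cdk6 alone.

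Mki67, a marker of cycling cells, had a UMI in 6.98% and 1.04% of CD150-high CD48-low cells, 5.39% and 2.80% of CD150-low CD48-low cells, 36.8% and 11.6% of CD150-high CD48-high cells and 30.0% and 31.8% of the reference. Thinned to 9000 UMIs these shares were 5.77% and 1.10%, 5.88% and 2.48%, 32.5% and 7.14%, and 25.8% and 26.4%. All 15 S phase genes and all 16 G2/M genes of the lists were called lower in the stem cell gate than in the reference. When the gates were compared over cells without a Mki67 UMI, 539 of them in the stem cell gate and 1740 in the reference, 3 of the 9 genes with enough UMIs were called: Cdkn1c higher, and Cdk4 and Cdk6 lower, with 12% of all genes called, 5.41% higher and 6.59% lower. Cdk6 was at 0.316 and 0.175 of the reference there, beside 0.319 and 0.166 in all cells. Cdk4 was at 0.628 and 0.567, and Cdkn1c was 5.03 (3.84 to 6.59) and 5.91 (5.11 to 6.84) times as high. In CD150-low CD48-low cells without a Mki67 UMI Cdkn1c (2.42 and 3.91) and Cdk6 (0.567 and 0.303) were called, with 5.93% of genes called, 2.87% higher and 3.06% lower. In CD150-high CD48-high cells Cdkn1c was called (2.59 and 4.22), with 6.17% of genes called, 3.61% higher and 2.56% lower. The 15 S phase genes were all still called lower in the stem cell gate among these cells, with a median log2 ratio of -1.86.

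The gates cut a continuous range of tags. Cells of each library were ranked by tag count and divided into 5 groups of equal size. From group 1, with the fewest CD48 tags, to group 5, Cdk6 was at 140, 195, 262, 335 and 436 with suffix 1 and at 98.4, 195, 345, 510 and 572 with suffix 2. Cdkn1c was at 42.8, 24.7, 16.8, 10.97 and 8.44 with suffix 1 and at 91.8, 64.1, 27.0, 10.7 and 4.44 with suffix 2. Over these groups Cdk6 and Cdk4 went up and Cdkn1c went down at each step in both libraries. Mki67 itself went from 23.4 to 338 and from 0.962 to 254 over the CD48 groups.

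Along CD150 the steps were uneven. Cdkn1c was at 6.22, 10.5, 14.2, 17.4 and 40.7 with suffix 1 and at 7.14, 7.84, 15.7, 59.3 and 85.9 with suffix 2. Cdk6 was at 269, 307, 342, 365 and 218 with suffix 1 and at 479, 501, 484, 292 and 117 with suffix 2. In suffix 1 the level of Cdk6 thus went up over groups 1 to 4 and was lowest in group 5, while in suffix 2 it was lower in both groups 4 and 5 than in the others. The median CD150 count was 23 in group 4 of suffix 1 and 242 in that of suffix 2. Ccnd2 was at 189 and 289 in groups 4 and 5 of suffix 1 and at 314 and 324 in those of suffix 2, against 185 and 203 in group 3.

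**Figure D3:**
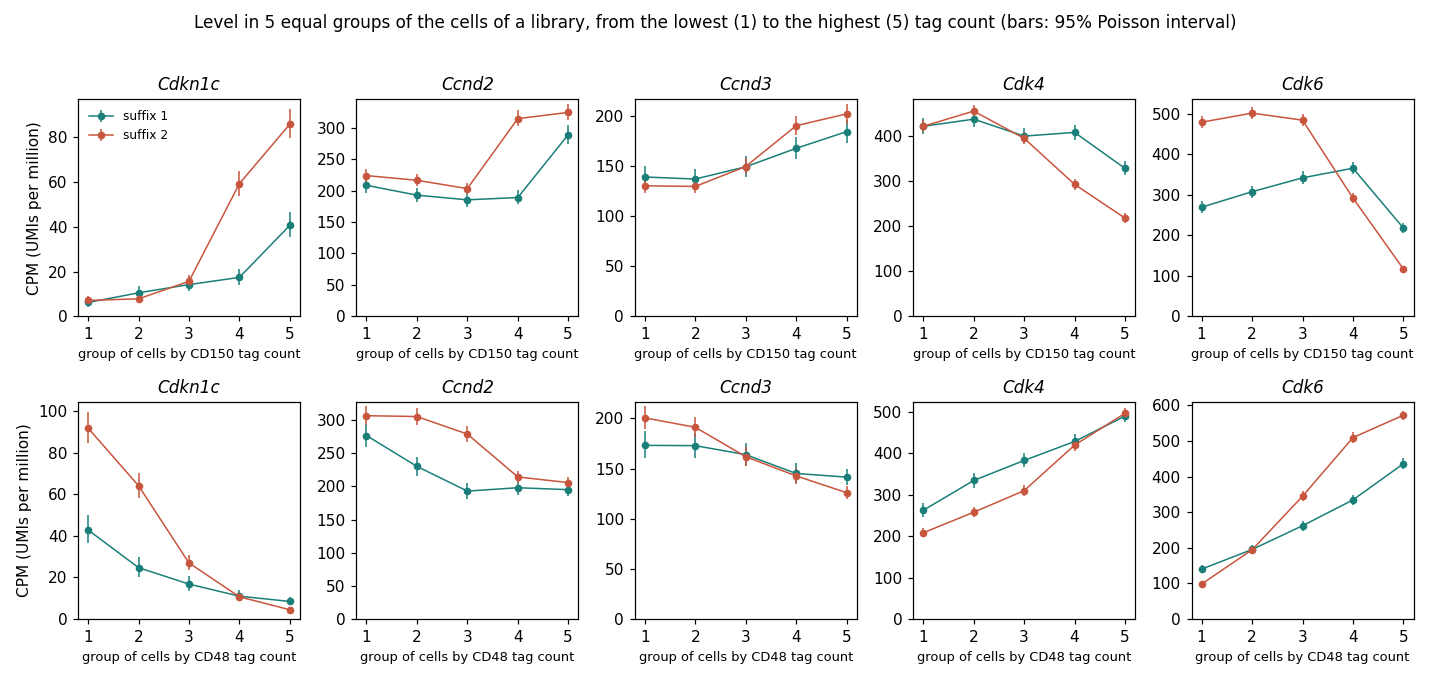
CPM (vertical axes, from 0) of 5 of the genes in 5 equal groups of the cells of a library, from the lowest (1) to the highest (5) count of CD150 tags (upper row) or CD48 tags (lower row), with bars for the 95% Poisson interval. Cdk6 goes up over the CD48 groups of both libraries, from 140 to 436 and from 98.4 to 572.

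Cells with a Mki67 UMI were 374 of 1524 with suffix 1 and 554 of 2544 with suffix 2. Against cells without one, Ccne1 and Cdkn1a were called higher and Cdkn1c lower, 3 of 10, where 16.5% of 11212 genes were called, 7.32% higher and 9.17% lower. The median log2 ratio of the 10 was 0.36, beside -0.05 for all genes tested. Ccne1 was at 11.5 in the Mki67 cells of either library against 2.39 and 2.82, a pooled ratio of 4.31 (3.48 to 5.37). Cdkn1a was at 8.63 and 18.0 against 4.14 and 9.31, by 1.92 (1.65 to 2.24). Cdkn1c was at 12.4 and 8.79 against 21.1 and 44.3, a ratio of 0.287 (0.251 to 0.328) that was 0.587 in suffix 1 and 0.199 in suffix 2.

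Both kinases were just at the limit. Cdk4 was at 503 and 485 in Mki67 cells against 336 and 303, ratios of 1.496 and 1.60, the first a little under the limit. Cdk6 was at 376 and 509 against 255 and 322, or 1.48 and 1.58. Cdkn2c was at 47.2 and 68.4 against 17.4 and 48.1, by 2.71 (2.34 to 3.15) and 1.42 (1.31 to 1.54), so it passed 1.5-fold with suffix 1 only.

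Among the D-type cyclins, Ccnd2 and Ccnd1 were lower in Mki67 cells of both libraries without reaching 1.5-fold in both. Ccnd2 was at 169 and 174 in Mki67 cells against 238 and 291, a pooled ratio of 0.633 (0.611 to 0.655). Ccnd1 was at 28.8 and 27.5 against 36.6 and 38.8, at 0.738 (0.675 to 0.806), and Ccnd3 at 158 and 138 against 155 and 167, at 1.02 (0.956 to 1.08) with suffix 1 and 0.826 (0.784 to 0.870) with suffix 2. Ccnd3 therefore made up more of the cyclin D UMIs in cells with a Mki67 UMI (44.4% and 40.7%) than without (36.0% and 33.7%), and Ccnd2 less (47.5% and 51.2% against 55.5% and 58.5%). Cdkn1b, at 38.4 and 38.2 against 38.7 and 33.7, was at 0.994 (0.875 to 1.13) with suffix 1 and 1.13 (1.02 to 1.26) with suffix 2.

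Depth and gate moved with these ratios. The median was 20013.5 UMIs in cells with 1 Mki67 UMI and 31709 in cells with over 20, against 13800 without, and 787 of the 928 cells with a Mki67 UMI lay in the reference gate. With every cell thinned to 9000 UMIs, which also set the Mki67 classes anew on the thinned counts (751 cells with a UMI and 3074 without), 5 of 10 were called (Cdkn1a, Ccne1 and Cdk4 higher, Ccnd1 and Ccnd2 lower) and Cdkn1c was not, at 0.716 in suffix 1 and 0.191 in suffix 2, where 14.4% of all genes were called. Counted as UMIs per cell with no division by depth, 7 of 10 were called, all higher, where 64.9% of all genes were called. Within the reference gate the call of Cdkn1c was lost too, at 0.748 (0.540 to 1.03) and 0.340 (0.263 to 0.436), while Ccne1 (3.17) and Cdkn1a (1.85) kept theirs. Over the 8 strata of 4 gates and 2 libraries, the ratio was over 1 in 8 for Cdk4, Cdk6 and Cdkn2c and under 1 in 8 for Ccnd2 (0.623 to 0.817), and the interval was off 1 in 6, 7, 6 and 6 of them. For Cdkn1c the interval was under 1 in 2 of the 8.

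The cells with a Mki67 UMI were not uniform, and the genes differed in where along the number of Mki67 UMIs they were highest. Classes of 0, 1, 2 to 5, 6 to 20 and over 20 Mki67 UMIs were compared. Ccne1 was at 2.39, 14.0, 17.4, 13.7 and 3.43 with suffix 1 and at 2.82, 10.5, 18.0, 11.7 and 4.18 with suffix 2. The class with the most Mki67 overlapped the class of 0 in both libraries. Cdkn2c was at 17.4, 14.0, 36.6, 50.5 and 67.9 with suffix 1 and at 48.1, 48.7, 55.0, 74.4 and 86.3 with suffix 2. The classes of over 5 Mki67 UMIs were above the class of 0 without overlap in both libraries.

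Ccnd1 was at 36.6, 51.8, 47.8, 23.3 and 11.7 with suffix 1 and at 38.8, 40.4, 42.0, 19.8 and 17.8 with suffix 2. Both classes over 5 Mki67 UMIs were below the lower 3 classes without overlap, in both libraries. Cdkn1b was lowest at 1 and 2 to 5 UMIs (23.1 and 25.9 with suffix 1, 28.1 and 26.4 with suffix 2) and highest at over 20 (53.2 and 63.4), against 38.7 and 33.7 at 0. The class of over 20 lay above the class of 0 without overlap in both libraries. Cdk4, by contrast, was between 435 and 511 in all classes with a Mki67 UMI.

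**Figure D4:**
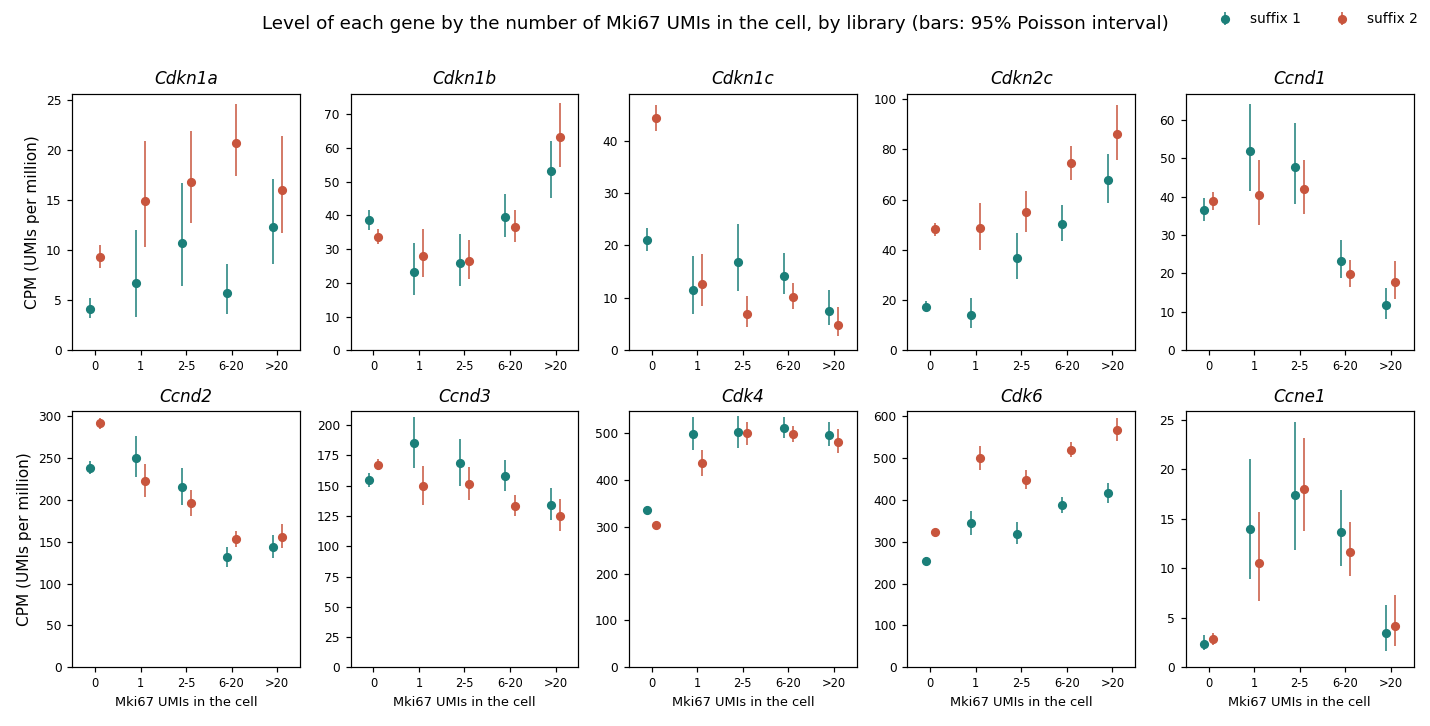
CPM (vertical axes, from 0) of each gene in cells with 0, 1, 2 to 5, 6 to 20 or over 20 Mki67 UMIs, 1 point per library and bars for the 95% Poisson interval. Ccne1 peaks at 2 to 5 UMIs (17.4 and 18.0), Cdkn2c and Cdkn1b are highest at over 20, and Ccnd1 is lowest at over 20.

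The cells were also split by the share of their UMIs in a list of 15 S phase genes and one of 16 G2/M genes, neither of which holds Mki67 or any of the 10, at the 75th percentile of each library. Such classes are ranges of a score and not phases, and 5.70% of cells lay within 10% of a limit. There were 2699 S-low G2/M-low cells, 352 S-high G2/M-low, 665 S-high G2/M-high and 352 S-low G2/M-high, and a Mki67 UMI was found in 2.67%, 11.6%, 79.8% and 80.7% of them. In S-high G2/M-low cells Cdk4 was called higher and Cdkn1c lower than in S-low G2/M-low cells, 2 of the 9 genes tested, with 13.5% of genes called, 5.52% higher and 7.94% lower. In S-high G2/M-high cells 5 of 10 were called, Cdkn1a, Cdk4, Cdk6 and Ccne1 higher and Cdkn1c lower, with 26.1% of genes called, 11.2% higher and 14.9% lower. In S-low G2/M-high cells 6 of 9 were called, Cdkn1a, Cdkn1b and Cdk6 higher and Cdkn1c, Ccnd1 and Ccnd2 lower, with 16.2% of genes called, 7.09% higher and 9.11% lower.

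Ccne1 was high in both S-high classes. It had too few UMIs for the call rule in S-high G2/M-low cells (26 and 30 there) and S-low G2/M-high cells (4 and 4). It was at 0.935 and 1.23 in S-low G2/M-low cells, 8.27 and 7.41 in S-high G2/M-low cells, 17.8 and 16.2 in S-high G2/M-high cells and 1.04 and 0.848 in S-low G2/M-high cells. The S-high classes were above the S-low classes without overlap, and the ratio to S-low G2/M-low cells was 14.97 (10.8 to 21.2) in S-high G2/M-high cells and 0.833 (0.338 to 1.80) in S-low G2/M-high cells.

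Ccnd1 and Cdkn1b differed from S-low G2/M-low cells in opposite directions in S-low G2/M-high cells. Ccnd1 was at 57.5 and 47.4 in S-high G2/M-low cells and at 9.88 and 14.8 in S-low G2/M-high cells, against 31.8 and 38.1 in S-low G2/M-low cells, and these 3 classes did not overlap in either library. Cdkn1b was at 24.2 and 27.3 in S-high G2/M-high cells and at 62.4 and 61.0 in S-low G2/M-high cells, against 41.2 and 34.3. Cdkn1c was low in all 3 classes with a high score, at 6.67 to 13.3, against 24.2 and 53.1. Gate and depth moved with these classes: 535 of 555 stem cell gate cells were S-low G2/M-low, where the median was 13299 UMIs per cell against 19369.5 to 26396 in the other classes, and their part in the values was not tested. Cdkn2c was at 58.3 and 73.6 in S-low G2/M-high cells against 16.8 and 49.2, by 3.46 (2.87 to 4.18) and 1.49 (1.32 to 1.69), the latter just under the limit. Cdk6 reached 402 and 590 in S-low G2/M-high cells against 237 and 270, a pooled ratio of 1.96 (1.89 to 2.03).

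**Figure D5:**
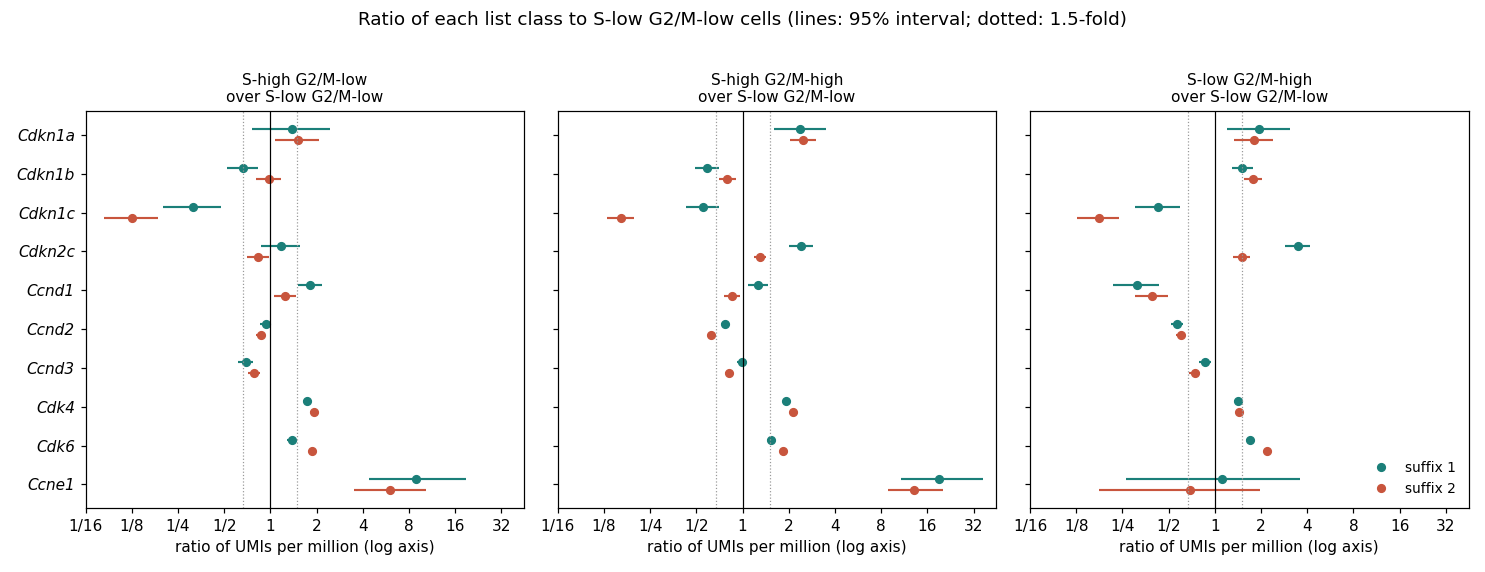
Ratio of CPM in 3 classes of cells, set by S phase and G2/M gene lists, to S-low G2/M-low cells (log axis), 1 point per library, lines for the 95% interval and dotted lines at 1.5-fold. Ccne1 lies far to the right in both S-high panels (14.97 pooled in S-high G2/M-high cells). It lies around 1 in S-low G2/M-high cells, on 4 UMIs there per library. Cdkn1c lies left in all 3.

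The libraries themselves differed in several of the genes within a gate, which has no replicate and, given the unequal tag limits, compares different tag ranges. In the CD150-high CD48-low gate the library of suffix 2 had more Cdkn1a, Cdkn1c and Cdkn2c and less Cdkn1b past 1.5-fold, 4 of the 9 genes tested (Cdkn1a on 9 UMIs with suffix 1 and 41 with suffix 2), where 16.8% of 9435 genes passed, 7.19% higher and 9.59% lower. In the reference gate Cdkn1a and Cdkn2c were higher with suffix 2, 2 of 10, where 8.01% of 11892 genes passed, 4.56% higher and 3.46% lower. In CD150-low CD48-low cells these were Cdkn1c and Cdkn2c, 2 of 8 tested, with 13% of genes past the limit, 5.79% higher and 7.18% lower. Marker sums there were 634 and 145 for the progenitor list, 38.4 and 1.74 for the lymphoid pair and 0.396 and 106 for red cell markers. The stem cell list was at 1329 and 1384, and the part of these sums in the values was not tested. In CD150-high CD48-high cells 7 of 10 passed, Cdkn1a, Cdkn1c, Cdkn2c and Ccnd1 higher and Cdk4, Cdk6 and Ccne1 lower, with 19.3% of genes past the limit, 8.12% higher and 11.2% lower. Marker sums moved with the library in this gate as well. With suffix 1 and suffix 2 they were 1036 and 1487 for the stem cell list, 457 and 149 for the progenitor list, 51.4 and 10.8 for the lymphoid pair and 80.6 and 298 for erythroid and megakaryocytic markers, and their part in the values of the 10 genes was not tested.

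Cdkn2c was the gene that passed in all 4 gates in the same direction, by 3.41 (2.38 to 5.02) in the stem cell gate, 2.98 (2.09 to 4.32) in CD150-low CD48-low cells, 1.55 (1.28 to 1.88) in CD150-high CD48-high cells and 1.89 (1.72 to 2.09) in the reference. Cdkn1a was higher with suffix 2 in all 4 gates as well, from 1.77 to 3.95, with an interval that held 1 in the stem cell gate (0.933 to 4.56) and too few UMIs for the rule in CD150-low CD48-low cells. Cdkn1c was 1.80 (1.48 to 2.20), 2.54 (1.92 to 3.41) and 2.68 (2.15 to 3.35) times as high in the CD150-high CD48-low, CD150-low CD48-low and CD150-high CD48-high cells of suffix 2, and 1.23 (1.02 to 1.48) times in the reference.

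Cdk6 lay on opposite sides of 1 in different gates. It was lower with suffix 2 in CD150-high CD48-low (0.753, 0.642 to 0.885), CD150-low CD48-low (0.798, 0.698 to 0.913) and CD150-high CD48-high cells (0.632, 0.582 to 0.687), and higher in the reference (1.44, 1.40 to 1.49). Cdkn1b was at 0.550 (0.421 to 0.721) in the stem cell gate and at 0.997 (0.906 to 1.10) in the reference. When the tag limits were set over both libraries together, the CD150-high CD48-low gate held 33 cells of suffix 1 and 614 of suffix 2, and 2 of 9 genes passed in it, with 25.5% of genes past the limit, and Cdkn1a and Cdkn1c no longer did. Beside these differences, in the stem cell gate 13 of 13 S phase genes and 11 of 11 G2/M genes with enough UMIs were lower with suffix 2 past 1.5-fold, as were all 15 and all 16 in CD150-high CD48-high cells, 8 of 14 and 10 of 11 in CD150-low CD48-low cells and none in the reference, and their part in the results was not tested.

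Cells of a gate with and without a Cdkn1c UMI were compared in thinned cells, within each library. In the CD150-high CD48-low gate, over 51 against 105 cells of suffix 1 and 193 against 170 of suffix 2, none of the other 9 members had an interval off 1 in either library. Cdk6 was at 0.824 (0.562 to 1.19) and 0.918 (0.708 to 1.19) there. In CD150-high CD48-high cells Cdk6 was at 0.762 (0.598 to 0.961) and 0.535 (0.421 to 0.676) in the cells with Cdkn1c, and in the reference at 0.849 (0.726 to 0.988) and 0.658 (0.599 to 0.722), so both intervals were under 1 in each of these gates. Mki67 was at 0.698 (0.504 to 0.950) and 0.678 (0.355 to 1.25) in the same CD150-high CD48-high cells and at 0.792 (0.615 to 1.01) and 0.347 (0.268 to 0.442) in the reference, and its part in the Cdk6 values was not tested.

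The pathway around these genes was counted over 32 others, of which 30 had enough UMIs in the gate comparisons. In the CD150-high CD48-low gate 12 were called lower and 3 higher, where 9.75% of all genes were called lower and 8.26% higher, with a median log2 ratio of -0.38 beside the -0.06 of all genes tested. The 12 were Ccne2, Ccna2 and Cdk2, the cyclins and kinase that act from late G1 through S phase, the pocket protein gene Rbl1, E2f1, E2f2, E2f7, E2f8 and their partner Tfdp1, Skp2 and Cks1b, which mark p27 for breakdown, and the phosphatase gene Cdc25a. E2f1 was at 14.7 and 4.18 in the stem cell gate against 31.6 and 32.3, and Cks1b at 85.7 and 28.3 against 193 and 186. Those higher were Mycn, Foxo1 and E2f5, a repressor E2F. Mycn was at 126 and 279 against 33.3 and 30.1, and Foxo1 at 19.5 and 32.8 against 7.65 and 8.82. E2f5 was at 15.1 and 19.9 against 6.63 and 8.72. Over cells without a Mki67 UMI, 4 of the 25 genes with enough UMIs were called lower (Cdk2, E2f1, Cks1b and Cdc25a) and 4 higher (Mycn, Foxo1, E2f5 and Cdkn2d), beside 6.59% and 5.41% of all genes, with a median log2 ratio of -0.16 beside -0.08.

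In CD150-low CD48-low cells 13 were called lower and 3 higher, E2f3 joining the 12, beside 6.71% and 5.61% of all genes. Mycn and Foxo1 alone of the 30 were called in CD150-high CD48-high cells, both higher, beside 4.37% of all genes. Over cells without a Mki67 UMI these counts were 3 lower and 1 higher of 26 in the first gate, beside 3.06% and 2.87%, and 3 higher and 0 lower of 26 in the second, beside 3.61% and 2.56%. In cells with a Mki67 UMI the 12 genes were called higher and E2f5 and Mycn lower, beside 7.32% and 9.17% of all genes, with a median log2 ratio of 0.38 over the 30, beside -0.05. Ccna2 was at 133 and 119 in these cells against 1.46 and 1.20, and Ccne2 at 22.6 and 20.4 against 3.32 and 3.23. The other 15, Rb1, Rbl2 and Myc among them, were called in neither the stem cell gate nor Mki67 cells. Between the libraries, 2 of the 25 genes with enough UMIs were higher and 7 lower with suffix 2 in the CD150-high CD48-low gate, where 16.8% of all genes passed 1.5-fold. In CD150-high CD48-high cells 3 of 30 were higher and 14 lower, beside 19.3% of all genes, and in CD150-low CD48-low cells 2 of 23 were higher and 3 lower, beside 13%. In the reference gate none of the 30 passed, beside 8.01%.

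The genes whose pattern was closest to each member were sought over the 16 sums of 4 gates, 2 libraries and cells with or without a Mki67 UMI, by Pearson r of log2(CPM + 1) among 9297 genes with at least 500 UMIs. For Cdkn1c they were Mmrn1 (0.97), Hacd4 (0.97) and Ryk (0.97), for Cdk4 Psmb5 (0.98), Ndufab1 (0.97) and Ndufa4 (0.97), and for Cdk6 Runx3 (0.94), Atp5b (0.93) and Cd244 (0.93). For Ccnd2 they were Zbtb20, Slc50a1 and Snap23 (0.91 each), for Ccnd3 Mansc1 (0.88), Tcf15 (0.84) and Csgalnact1 (0.83), and for Ccnd1 Tnfrsf1b, Nsun4 and H6pd (0.95 each). For Cdkn2c the closest were Cenpu (0.80), Tagln2 (0.78) and Ldha (0.78), the weakest likeness among the 10. Cdkn1a was closest to Ide (0.95), Naa10 (0.91) and Rnaset2a (0.88), Cdkn1b to Taf13 (0.92), Tst (0.88) and Acot7 (0.87), and Ccne1 to Coq7 (0.96), Larp4b (0.95) and Tssc4 (0.94), where several sums held few UMIs. Of the 16, the sums of Mki67 cells in the CD48-low gates held only 12, 4, 11 and 7 cells, so sparse genes had few UMIs in them. The sums share libraries and depth, and the coefficients are descriptions.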

How the data were processed

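LSK cells of 8 mice, 4 per age, gave 1 library per age. The deposited matrix held UMI counts per gene and cell, which the authors made with Cell Ranger 3.1.0 (named in the submitters' processing notes) from 3′ libraries and combined with an aggregation step that normalised the libraries to each other. The mode of that step is not given in the sources used here. The tag file, as deposited by the authors, held the log10 of each cell's tag count, and 100.0% of its finite values gave whole numbers. The 82 kept cells without tags entered no gate.

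UMIs were summed per class and library and divided by the class total. Levels have exact Poisson 95% intervals, ratios exact conditional binomial intervals and shares Clopper-Pearson intervals. There was no test across samples, since an age has 1 library. The call rule was tested on simulated data: of genes changed 2-fold upward between the CD150-high CD48-low gate and the reference, 90% were called in the right direction, of those changed 2-fold downward 85.7%, and of unchanged genes 0.227% were called, over 10778 genes. Each age is 1 library, so these rates cannot cover differences between mice or between libraries of an age. Thinning used 9000 UMIs per cell and a fixed seed. No doublet caller was run and no doublets were removed, and an alternative left out the cells above the 99th percentile of UMIs. Python 3.11.15, NumPy 2.4.6, SciPy 1.17.1, pandas 2.3.3 and Matplotlib 3.10.9 were used.

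The text names all 10 genes, the called genes of the pathway list, and the 3 genes most like each member. The 10 genes, the pathway and marker lists and the alternatives were chosen with earlier results of these data known. Alternatives were other cell filters, scalings, UMI minimums, folds and tag limits, and cells without a Mki67 UMI.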

Additional observations from a re-analysis of the deposited data

Results flagged for a closer look

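Among the members' ratios of a whole gate to the reference, 2 had both library-specific intervals off 1 but on opposite sides. These differences between the libraries were not tested. Ccnd1 in CD150-low CD48-low cells, relative to CD150-low CD48-high cells, had a ratio of 0.740 (0.564 to 0.957) in suffix 1 and 1.28 (1.03 to 1.57) in suffix 2. Ccne1 in CD150-high CD48-high cells had a ratio of 1.51 (1.02 to 2.19) in suffix 1 and 0.368 (0.188 to 0.656) in suffix 2, on 41 and 12 UMIs. In the latter gate a Mki67 UMI was found in 36.8% of cells of suffix 1 and 11.6% of suffix 2. The count of 2 does not cover the classes set by the S phase and G2/M lists. There Ccnd1 was at 40.2 and 32.7 in S-high G2/M-high cells against 31.8 and 38.1 in S-low G2/M-low cells. It was thus higher with suffix 1 and lower with suffix 2.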

How the results depend on the processing

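No paired analysis was possible because the values come from no test, and the gate and Mki67 ratios were already taken within each library. Counts of members called are given against those of the report. In cells with over 2500 genes and under 5% mitochondrial UMIs, 1 member instead of 4 was called in the CD150-high CD48-low gate. That comparison held 57 against 238 cells. In CD150-low CD48-low cells 1 was called instead of 4, which was Cdkn2c, lower, and all 4 reported calls were lost. In Mki67 cells 0 were called instead of 3, and fewer members were tested throughout (7 each). Of all genes 10.3%, 9.53% and 10.2% were called there, beside 18%, 12.3% and 16.5% in the report. With 2-fold as the limit these counts were 2, 2 and 1 (8.64%, 5.34% and 6.82% of all genes), and between the libraries 1 in the stem cell gate (4 in the report, with 5.49% of all genes in place of 16.8%) and 1 in the reference gate (2 in the report, 3.14% in place of 8.01%). In the CD150-high CD48-low gate 6 were called with tag limits set over both libraries (21.6% of all genes) and 6 as UMIs per cell (40.8%), and in CD150-low CD48-low cells 6 as UMIs per cell (49.1%). In CD150-low CD48-low cells 2 were called after thinning (8.38% of all genes), with a centred log ratio of the tags (9.85%), and in cells without a Mki67 UMI (5.93%). In CD150-high CD48-high cells 2 instead of 1 were called with the 85th and 15th percentiles (8.07% of all genes) and with the centred log ratio (5.94%), beside 7.01% in the report. Under the stricter filter 1 was called there, Ccnd1 lower, and the call of Cdkn1c was lost (6.08% of all genes).

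In Mki67 cells 5 were called with the mean over cells of each cell's level, with ratios divided by the median ratio, after thinning, with at least 2 Mki67 UMIs and against cells with neither a Mki67 nor a Top2a UMI (14.4% to 20.3% of all genes), 7 as UMIs per cell (64.9% of all genes), and 0 within the CD150-high CD48-low gate (16 cells, 7 members tested, 11.2% of all genes). With tag limits set over both libraries, 2 differed between the libraries in the stem cell gate (25.5% of all genes) and 4 in the reference gate (8.32%), and in cells without a Mki67 UMI 4 in the latter (7.78%). The cause of these moves was not tested.

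The call of Cdkn1a in the CD150-high CD48-low gate was lost under the stricter filter, the mean over cells, thinning, the 2-fold limit, both other percentile settings and in cells without a Mki67 UMI. That of Cdk4 was lost under the stricter filter, the 2-fold limit and the centred log ratio, while that of Cdk6 was kept under every alternative and that of Cdkn1c under all but the stricter filter. Ratios reversed for Ccne1 in CD150-low CD48-low cells under the stricter cell filter (1.35) and for Cdkn1a in Mki67 cells within the CD150-high CD48-low gate (0.502). Of the members' other ratios 638 moved by less than their interval and 200 by more. The 638 include 60 under the 2-fold limit and 60 under the minimum of 10 UMIs, settings that cannot move a ratio. Leaving out plasma-like cells, an alternative chosen after seeing the data, moved none. Depth limited Ccne1 and Cdkn1a most, with 411 and 699 UMIs in all.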
